A study of Mus musculus with 4 samples.

Results

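The enzymes described here make, salvage and clear the deoxynucleotides from which DNA is built: 9 genes, Rrm1, Rrm2, Rrm2b, Tyms, Tk1, Dck, Dut, Dctpp1 and Samhd1, chosen by name for their known roles among the 55335 rows of the expression table. All 9 were found, each on 1 row. The series measured RNA of sorted mouse stomach cells by SMART-Seq2, a full-length method that amplifies the RNA of few cells by PCR, in a study of Iqgap3 and stem cell proliferation in the corpus, the acid- and pepsinogen-secreting body of the stomach. The comparison set cells bright for an Iqgap3 reporter (IQ3pos) against dim or dark cells (IQ3neg).

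All groups came from C57BL/6 mice of 6 to 8 weeks that carried the Iqgap3-2A-tdTomato allele, in which the Iqgap3 gene drives a red fluorescent protein, so IQ3neg cells carried the reporter too. Living cells positive for the epithelial surface protein EpCAM were sorted from the corpus. IQ3pos_1909A and IQ3neg_1909B were each pooled from 3 mice, and IQ3pos_1910A and IQ3neg_1910B each from 4 mice. The labels do not say whether libraries with the same number share mice. With 2 libraries in each fraction, p-values measure the spread between pools, part of which may be technical.

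Ribonucleotide reductase turns ribonucleotides into deoxynucleotides. Its large catalytic subunit is encoded by Rrm1, and its small subunit either by Rrm2, which cells make mainly while they replicate DNA, or by Rrm2b, a p53 target that serves repair and mitochondrial DNA in resting cells. Thymidylate synthase (Tyms) makes dTMP from dUMP with a folate carbon, while thymidine kinase (Tk1) and deoxycytidine kinase (Dck) salvage nucleosides. Dut and Dctpp1 hydrolyse dUTP and dCTP, and Samhd1 breaks dNTPs back down to nucleosides.

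Of the 9 genes, 6 (Rrm1, Rrm2, Tyms, Tk1, Dut and Dctpp1) were higher in each IQ3pos library than in either IQ3neg library, and 0 were lower in both. Levels are in CPM, counts per 1000000 reads in genes, and genes that averaged 1 CPM or more were tested, 13019 in all. Of these, 40.9% were higher in both IQ3pos libraries and 14.2% lower in both. The other 3 genes, Rrm2b, Dck and Samhd1, overlapped between the fractions. Differences are given as log2(CPM + 1), IQ3pos minus IQ3neg, and were tested with limma and Benjamini-Hochberg adjustment over all genes tested. At an adjusted p under 0.05 limma called 0 of the 9 genes, against 0% of all genes in either direction, and the lowest limma adjusted p of any gene was 0.0542. Before adjustment, limma gave a p under 0.05 with 5 of the 9 genes higher in IQ3pos and 0 lower, against 18.2% higher and 4.98% lower of all genes. Limma on TMM-scaled CPM (a scaling for library composition) called 0 of the 9, against 0% of its genes higher and 0.137% lower. On reads recovered from the CPM, edgeR called 0 of the 9, against 0.0535% of its genes higher and 0.214% lower, and DESeq2 called 0, against 4.84% higher and 9.45% lower. When only genes averaging 10 CPM or more entered limma, 6866 in all, 7 of the 9 remained and it called 4 of them higher (Rrm1, Rrm2, Tyms and Dctpp1) and 0 lower, against 14.5% higher and 1.27% lower of those genes. With a pseudocount of 5 CPM it called 2 of the 9 higher (Rrm1 and Tyms) and 0 lower, against 1.84% higher and 0.415% lower of all genes. All 9 genes passed the filter of 1 CPM.

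Depth ran from 90714929 to 418401262 reads in genes per library. CPM are shares of a library, and the log2 difference of the median gene was 0.68, or 1.60-fold higher in IQ3pos; TMM scaling took it to 0.04. With TMM scaling the same 6 genes were higher in both IQ3pos libraries and 0 lower, beside 25.1% and 21.4% of all genes. Iqgap3 itself read 0.220 and 9.32 CPM in IQ3pos_1909A and IQ3pos_1910A, against 0.0435 and 0.452 CPM in IQ3neg_1909B and IQ3neg_1910B, so the fractions overlapped for the sorted gene (limma adjusted p = 0.493). Epithelial markers (Epcam, Cdh1, keratins and Cldn18) summed to 10167 and 11349 CPM in IQ3pos and 3242 and 5689 CPM in IQ3neg. Chief cell markers summed to 50944 and 19531 CPM in IQ3pos and to 415787 and 404304 CPM in IQ3neg, with 0 of 7 higher and 7 lower in both IQ3pos libraries. Enteroendocrine markers, 0 of 9 higher and 9 lower, summed to 390.4 and 189 CPM in IQ3pos and to 17099 and 10722 CPM in IQ3neg. On the other side stood 6 of 6 pit cell markers, with sums of 12576 and 13170 CPM in IQ3pos and 1418 and 1950 CPM in IQ3neg, and 7 of 8 parietal cell markers, with sums of 7993 and 7579 CPM in IQ3pos and 824 and 1462 CPM in IQ3neg. Relative to the median gene the pit and parietal lists had median log2 differences of 2.40 and 1.62. The part of these cell types in the values below was not tested. In these pools, a change in the number of cells of a type and a change in RNA per cell cannot be told apart.

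**Figure D1:**
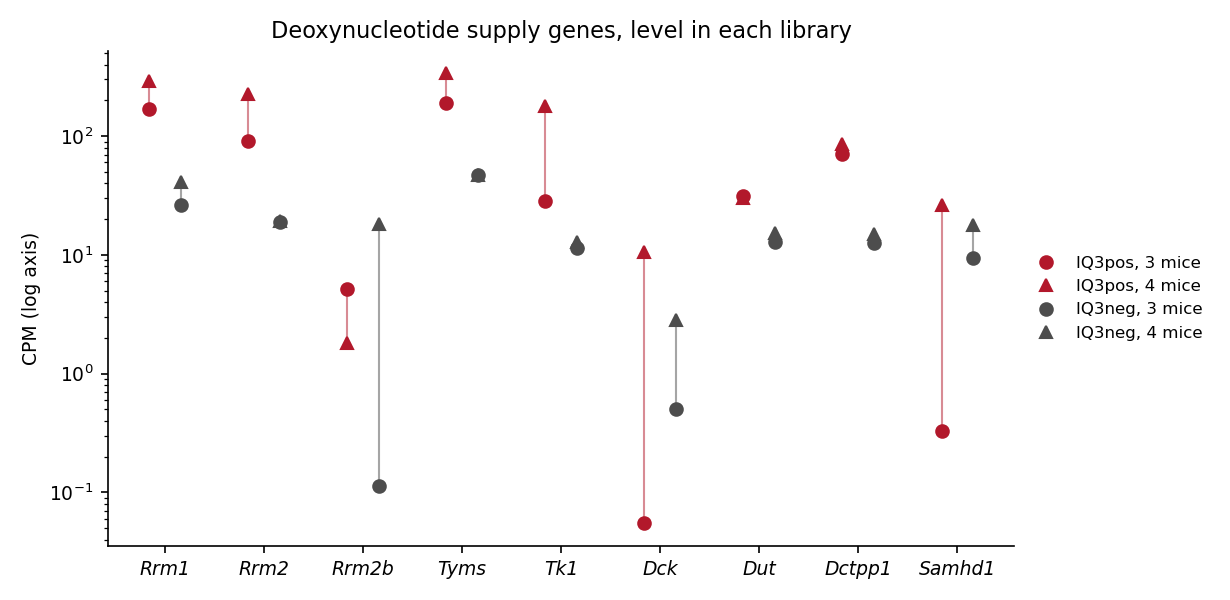
Level of each deoxynucleotide supply gene in each library, in CPM on a log axis. Each point is 1 library: red IQ3pos left of grey IQ3neg, circles for pools of 3 mice and triangles for pools of 4 mice, with a line joining the libraries of a fraction. For Rrm1, Rrm2, Tyms, Tk1, Dut and Dctpp1 both red points lie above both grey points, while Rrm2b, Dck and Samhd1 overlap, with points as low as 0.0551 CPM.

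The promoters of 3 genes are shown because each holds a CCAAT box, the letters CCAAT on either strand, which the other matched members lack. They are the 300 bases that end 50 bases past the RefSeq start on GRCm38.p6, read on the gene's strand: Rrm1 at chr7:102441445-102441744 (plus strand), Rrm2 at chr12:24708004-24708303 (plus) and Dctpp1 at chr7:127260618-127260917 (minus). Capitals mark CCAAT or its reverse ATTGG and, in Rrm1 and Rrm2, a core of the kind bound by E2F factors, searched as TTCCCGC or TTGGCGC or TTCGCGC or TTGCCGC on both strands.
Rrm1 promoter: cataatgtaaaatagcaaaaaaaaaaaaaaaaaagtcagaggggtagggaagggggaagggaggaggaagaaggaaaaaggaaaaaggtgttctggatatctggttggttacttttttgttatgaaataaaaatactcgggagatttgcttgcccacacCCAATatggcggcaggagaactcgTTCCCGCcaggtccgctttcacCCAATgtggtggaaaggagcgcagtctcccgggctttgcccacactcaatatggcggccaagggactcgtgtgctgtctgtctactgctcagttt
Rrm2 promoter: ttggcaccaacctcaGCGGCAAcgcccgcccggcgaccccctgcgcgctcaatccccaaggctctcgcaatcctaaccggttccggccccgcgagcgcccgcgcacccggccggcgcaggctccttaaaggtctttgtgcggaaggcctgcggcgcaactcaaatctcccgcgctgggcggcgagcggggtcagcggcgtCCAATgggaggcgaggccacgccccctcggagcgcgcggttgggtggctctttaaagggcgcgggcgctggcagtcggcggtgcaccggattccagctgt
Dctpp1 promoter: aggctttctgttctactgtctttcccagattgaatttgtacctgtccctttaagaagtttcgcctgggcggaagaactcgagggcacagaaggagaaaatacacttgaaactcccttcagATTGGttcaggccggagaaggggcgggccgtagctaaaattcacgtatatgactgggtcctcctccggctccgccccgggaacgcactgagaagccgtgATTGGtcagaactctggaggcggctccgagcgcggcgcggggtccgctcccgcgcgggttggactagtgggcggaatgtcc
In Rrm1 the E2F core begins 67 bases before the start and lies between CCAAT boxes that begin 91 and 45 bases before it. In Rrm2 an E2F core on the other strand begins 235 bases before the start, far from the CCAAT box at 50 bases. Dctpp1 has ATTGG at 130 and 31 bases before its start and no such core. RefSeq windows were matched for 8 of the 9 genes, all but Rrm2b. The E2F letters were found in 2 of the 8, against 9.57% of 32851 promoter windows. CCAAT was found in 3 of the 8, about the same share as the 37.4% of all windows. Tyms, Tk1 and Dut lack CCAAT, though they were higher in both IQ3pos libraries like Rrm1, Rrm2 and Dctpp1. A further motif of cell cycle promoters, TTTGAA or TTCGAA, was found in Dck alone, against 19.2% of all windows; none of the marked motifs overlap. These matches are letters in a window, and no binding was measured.

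Among the subunits of the reductase, Rrm1 and Rrm2 separated the fractions and Rrm2b did not. Rrm1 lies on chromosome 7 of GRCm38, at 102441695 to 102469771 on the plus strand. It read 170.0 and 291 CPM in IQ3pos_1909A and IQ3pos_1910A, against 26.1 and 40.9 CPM in IQ3neg_1909B and IQ3neg_1910B. Both IQ3pos libraries lay well above both IQ3neg libraries, and the fold was 6.52 between the 3-mouse libraries and 7.12 between the 4-mouse libraries, or 3.41 and 5.14 with TMM scaling. The means were 231 ± 85.8 CPM in IQ3pos and 33.5 ± 10.5 CPM in IQ3neg (SD, n = 2 each). Limma's log2 difference was 2.73 with SE 0.44 (adjusted p = 0.0659). With TMM scaling the difference was 2.04 (limma adjusted p = 0.233).

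Rrm2, the small subunit of dividing cells, had the largest difference of the 9 genes in limma, with and without TMM scaling. It lies on chromosome 12 at 24708241 to 24714146, on the plus strand. It read 91.5 and 228 CPM in IQ3pos_1909A and IQ3pos_1910A, against 18.9 and 19.2 CPM in IQ3neg_1909B and IQ3neg_1910B. The IQ3neg libraries were almost level, and the spread lay within IQ3pos, where the 4-mouse pool was the higher. The fold was 4.84 between the 3-mouse libraries and 11.9 between the 4-mouse libraries, or 2.53 and 8.58 with TMM scaling. The means were 159.7 ± 96.4 CPM in IQ3pos and 19.0 ± 0.202 CPM in IQ3neg. In log2 terms the difference was 2.86 with SE 0.54 (limma adjusted p = 0.0686), and 2.18 with TMM scaling (limma adjusted p = 0.265). Of the 13019 tested genes, 97.2% had a smaller log2 difference than Rrm2, and 96.6% a smaller one than Rrm1.

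Rrm2b, the p53-responsive small subunit, differed in opposite directions at the 2 pool sizes. It lies on chromosome 15 at 37923952 to 37961318, on the minus strand. It read 5.15 and 1.81 CPM in IQ3pos_1909A and IQ3pos_1910A, against 0.113 and 18.1 CPM in IQ3neg_1909B and IQ3neg_1910B, from 467 and 504 reads in IQ3pos and 13 and 7590 reads in IQ3neg. Both the lowest and the highest library were IQ3neg, so the IQ3pos values lay inside the IQ3neg range. The 13 reads give a 95% Poisson interval of 0.0602 to 0.193 CPM, far below the other 3 libraries. This interval covers counting error only, since the reads carry no molecular identifiers. Limma gave a log2 difference of −0.15 (SE 1.57, adjusted p = 0.960), and −0.57 with TMM scaling. EdgeR gave −2.47 and DESeq2 −2.09 on the recovered reads. Exons of Rrm2b overlap the antisense gene Gm49085 over 734 bases, and without a stated strand setting reads of the overlap cannot be told apart. Gm49085 read 0.948 and 5.43 CPM in IQ3pos and 6.49 and 3.11 CPM in IQ3neg, and its part in the Rrm2b values was not tested.

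The balance of the subunits was compared within each library as CPM per kb of merged exons, a ratio that library composition cannot shift. Rrm2 to Rrm2b stood at 58.6 and 416 in IQ3pos_1909A and IQ3pos_1910A, against 551 and 3.49 in IQ3neg_1909B and IQ3neg_1910B. The fractions overlapped, and the IQ3neg libraries held both the highest and the lowest ratio. With principal transcript lengths the ratio was 37.0 and 262 in IQ3pos and 348 and 2.20 in IQ3neg, in the same order of libraries. Rrm2 to Rrm1 stood at 2.14 and 3.11 in IQ3pos and at 2.88 and 1.86 in IQ3neg, also overlapping. With principal transcript lengths this ratio was 0.981 and 1.43 in IQ3pos and 1.32 and 0.854 in IQ3neg, so its size depended on the length used. With 2 libraries against 2, an exact permutation test cannot give a two-sided p below 1 in 3, and the ratios are given without a test.

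Tyms, which supplies the thymine base of DNA, was the member of highest CPM in every library. It lies on chromosome 5 at 30058202 to 30073617, on the minus strand. It read 191 and 338 CPM in IQ3pos_1909A and IQ3pos_1910A, against 46.7 and 47.3 CPM in IQ3neg_1909B and IQ3neg_1910B. Both IQ3pos libraries were higher than both IQ3neg libraries, by 4.08-fold between the 3-mouse libraries and 7.16-fold between the 4-mouse libraries, or 2.13 and 5.17 with TMM scaling. Its log2 difference was 2.41 (SE 0.39, limma adjusted p = 0.0659) and 1.72 with TMM scaling (limma adjusted p = 0.260). A pseudogene, Tyms-ps, also has a row in the table, and how reads shared with it were counted is not given in the sources used here.

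Dut, which removes dUTP and yields the dUMP that Tyms uses, differed much less. It lies on chromosome 2 at 125247190 to 125258608, on the plus strand. It read 31.6 and 30.2 CPM in IQ3pos_1909A and IQ3pos_1910A, against 12.9 and 15.4 CPM in IQ3neg_1909B and IQ3neg_1910B. The libraries within each fraction lay close together and the fractions did not overlap. The means were 30.9 ± 0.961 CPM in IQ3pos and 14.2 ± 1.75 CPM in IQ3neg. The log2 difference was 1.08 with SE 0.53 (limma adjusted p = 0.293), which is 0.40 above the median gene. With TMM scaling it was 0.41 (limma adjusted p = 0.754), with folds of 1.28 between the 3-mouse libraries and 1.42 between the 4-mouse libraries. Per kb of merged exons, the ratio of Tyms to Dut was 2.39 and 4.43 in IQ3pos and 1.43 and 1.21 in IQ3neg, with no overlap.

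Dctpp1, a pyrophosphatase that clears dCTP and its modified forms, lies on chromosome 7 at 127256959 to 127260709, on the minus strand. It read 70.7 and 86.4 CPM in IQ3pos_1909A and IQ3pos_1910A, against 12.5 and 14.9 CPM in IQ3neg_1909B and IQ3neg_1910B. The fractions did not overlap, and the fold was 5.66 between the 3-mouse libraries and 5.79 between the 4-mouse libraries, or 2.96 and 4.19 with TMM scaling. The means were 78.5 ± 11.1 CPM in IQ3pos and 13.7 ± 1.72 CPM in IQ3neg. On the log2 scale they differed by 2.43 with SE 0.46 (limma adjusted p = 0.0686), and by 1.76 with TMM scaling (limma adjusted p = 0.266). Per kb of merged exons its level was the highest of the 9 genes in every library, at 105 and 128 CPM per kb in IQ3pos and 18.5 and 22.1 CPM per kb in IQ3neg. It remained the highest in all 4 libraries when principal transcript lengths were used.

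The salvage kinases parted. Tk1, the S-phase thymidine kinase, lies on chromosome 11 at 117815526 to 117826092, on the minus strand. It read 28.5 and 179 CPM in IQ3pos_1909A and IQ3pos_1910A, against 11.4 and 12.9 CPM in IQ3neg_1909B and IQ3neg_1910B. Both IQ3pos libraries were the higher, but the IQ3pos_1910A value stood far above the other 3. The fold was 2.50 between the 3-mouse libraries and 13.9 between the 4-mouse libraries, and 1.30 and 10.03 with TMM scaling. The log2 difference was 2.47 (SE 0.91, limma adjusted p = 0.187) and was 1.17 without IQ3pos_1910A (0.33 with TMM scaling) and 3.78 without IQ3pos_1909A. Exons of Tk1 share 83 bases with Afmid on the other strand. Afmid read 0.0220 and 9.69 CPM in IQ3pos and 0 and 1.64 CPM in IQ3neg. The part of Afmid reads in the Tk1 values was not tested.

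Dck, the deoxycytidine kinase, lies on chromosome 5 at 88764996 to 88783281, on the plus strand, and was low in every library but IQ3pos_1910A. It read 0.0551 and 10.6 CPM in IQ3pos_1909A and IQ3pos_1910A, against 0.504 and 2.82 CPM in IQ3neg_1909B and IQ3neg_1910B, from 5 and 2958 reads in IQ3pos and 58 and 1178 reads in IQ3neg. The IQ3pos libraries held both the lowest and the highest value, and the 5 reads of IQ3pos_1909A give a 95% Poisson interval of 0.0179 to 0.129 CPM. The log2 difference was 0.55 (SE 1.42, limma adjusted p = 0.834). Per kb, the ratio of Tk1 to Dck was 376 and 12.3 in IQ3pos and 16.5 and 3.33 in IQ3neg, and the 376 rests on those 5 reads. With principal transcript lengths it was 1105 and 36.1 in IQ3pos and 48.4 and 9.80 in IQ3neg.

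Samhd1, the dNTP hydrolase, lies on chromosome 2 at 157097533 to 157135265, on the minus strand. It read 0.331 and 26.3 CPM in IQ3pos_1909A and IQ3pos_1910A, against 9.44 and 17.9 CPM in IQ3neg_1909B and IQ3neg_1910B. Again the lowest and the highest library were both IQ3pos, and IQ3pos_1909A held only 30 reads (95% Poisson interval 0.223 to 0.472 CPM). The log2 difference was −1.22 (SE 1.54, limma adjusted p = 0.653). Myeloid cells are known for high Samhd1, so immune markers were read beside it. The 20 immune markers summed to 1768 and 392 CPM in IQ3pos and 2557 and 463 CPM in IQ3neg. Of the 20, 16 were lower in IQ3pos_1910A than in IQ3pos_1909A, but 3 of the 20 were under 1 CPM in all 4 libraries. The share of all genes lower in that library was not counted. The list mixes T cell, B cell and myeloid markers, which were not read apart. The part of the immune markers in the Samhd1 values was not tested. The EpCAM sort selects epithelial cells. Ptprc, the pan-leukocyte antigen, read 22.8 and 0.0824 CPM in IQ3pos and 38.8 and 14.5 CPM in IQ3neg. The T cell marker Cd3e did not exceed 0.0551 CPM in any library. Both were named after their values were seen and do not stand for the list. Most of its summed CPM in each library lay in other markers, and no myeloid marker is named here.

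**Figure D2:**
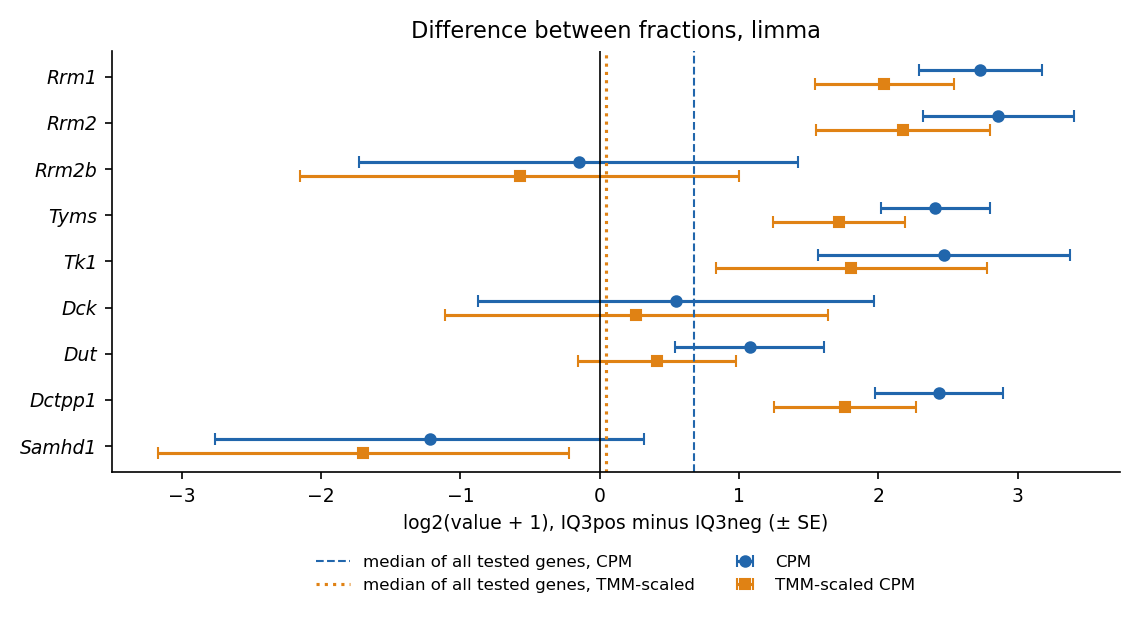
Log2 difference between IQ3pos and IQ3neg for each gene with its limma standard error, for CPM (blue circles) and TMM-scaled CPM (orange squares), each with 1 added before the log. The dashed and dotted lines are the medians of all tested genes, 0.68 for CPM and 0.04 with TMM scaling. Rrm1, Rrm2, Tyms, Tk1 and Dctpp1 lie well to the right of these medians on both scales, and Rrm2b, Dck and Samhd1 have errors that cross 0 on the CPM scale.

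Relative to the median gene, the log2 differences of the 9 genes ran from 2.18 for Rrm2 to −1.90 for Samhd1, with a median of 1.73. Without IQ3pos_1910A the median was 0.50, and leaving out each other library gave at most 1.77. Rrm1, Tyms, Dctpp1 and Tk1 lay at 2.05, 1.73, 1.76 and 1.79 above the median gene, close to one another. Dut lay at 0.40, Dck at −0.13 and Rrm2b at −0.83. The CPM of the 9 genes summed to 588 and 1192 in IQ3pos_1909A and IQ3pos_1910A, against 139 and 189.5 in IQ3neg_1909B and IQ3neg_1910B. Rrm1, Rrm2 and Tyms made up 76.8% and 71.9% of that sum in IQ3pos and 66.2% and 56.7% in IQ3neg. Per kb of merged exons, Rrm2b, Dck and Samhd1 took the lowest 3 places in every library, in varying order.

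In CPM 7 of the 9 genes, all but Rrm2b and Dut, were higher in IQ3pos_1910A than in IQ3pos_1909A. With TMM scaling Dut was also higher in IQ3pos_1910A, at 26.4 against 22.2. The share of all genes higher in that library was not counted, so whether this count is particular to these genes is not known. Iqgap3 itself was higher in IQ3pos_1910A too, as the values above show, and its part in this order was not tested. The spread between the IQ3pos libraries depended on level. Among tested genes with a mean under 20 CPM, 36.7% had IQ3pos libraries more than 2 apart on the log2(CPM + 1) scale, and 17.5% had IQ3neg libraries that far apart. From 20 to 100 CPM the shares were 9.14% in IQ3pos and 6.53% in IQ3neg. From 100 CPM upward they were 2.35% in each. Dck and Samhd1, with IQ3pos gaps of 3.46 and 4.36, belong to the low range and Rrm2b to it with an IQ3neg gap of 4.10, while Tk1, with an IQ3pos gap of 2.61 at a mean of 58.0 CPM, stands among the 9.14%. Rrm1, Rrm2, Tyms, Dctpp1 and Dut had IQ3pos gaps of 0.77, 1.31, 0.82, 0.29 and 0.06.

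**Figure D3:**
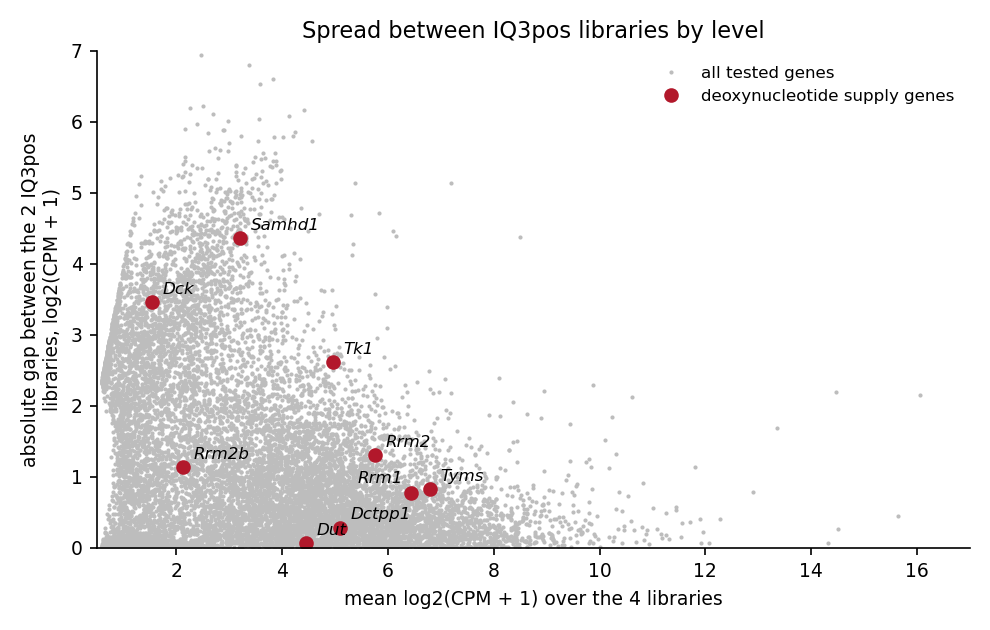
Absolute gap between the IQ3pos libraries (vertical axis) against the mean level over all 4 libraries (horizontal axis), both in log2(CPM + 1), for every tested gene (grey) and the deoxynucleotide supply genes (red). Gaps over 2 are common at low levels, where Dck and Samhd1 lie, and scarce at the levels of Rrm1 and Tyms, whose gaps are 0.77 and 0.82.

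The genes whose pattern over the 4 libraries was most like that of Rrm2 were sought among 4659 named genes averaging 20 CPM or more. Gene models and clones without a gene name, cytosolic ribosomal protein genes and mitochondrially encoded genes were left out. Likeness was measured by the largest difference in log2(CPM + 1) after centring each gene on its mean. Nearest were Kpna2, an importin of the nuclear import route, at 0.18, Mki67, the Ki-67 proliferation antigen, at 0.19, and Me1, the cytosolic malic enzyme, at 0.24. Mki67 read 163 and 360 CPM in IQ3pos and 30.3 and 38.4 CPM in IQ3neg. Rrm1 came at rank 16 in this order, Tyms at 25, Dctpp1 at 133, Tk1 at 254 and Dut at 2353. For Rrm2b the nearest of 4660 genes were Pgm2l1, Wbp2 and Inpp5b, which lay 0.83 to 0.94 away, while Rrm2 came at rank 4411. Rrm2b averaged 6.30 CPM, below the 20 CPM limit of this search, so genes at its own level were not among the candidates. Pgm2l1 read 54.8 and 15.5 CPM in IQ3pos and 4.24 and 54.9 CPM in IQ3neg, the same order of libraries as for Rrm2b, though IQ3pos_1909A and IQ3neg_1910B were nearly level. The 7 tuft cell markers were also all highest in IQ3neg_1910B, the library where Rrm2b was highest. All 7 were lowest in IQ3pos_1910A, whereas Rrm2b was lowest in IQ3neg_1909B. The tuft markers summed to 661 and 188 CPM in IQ3pos and 480 and 1476 CPM in IQ3neg. The share of all genes highest in IQ3neg_1910B was not counted, and the part of the tuft markers in the Rrm2b values was not tested.

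The genes of the replication fork, which use the deoxynucleotides, were read beside the 9 supply genes. Of 32 replication fork genes, all tested, 27 were higher in both IQ3pos libraries and 0 lower in both, 21 and 0 with TMM scaling, with a median 1.45 above that of all genes. Pcna, the sliding clamp of DNA polymerases, read 153 and 254 CPM in IQ3pos and 35.2 and 55.5 CPM in IQ3neg (log2 difference 2.13, limma adjusted p = 0.0739). Mcm6, a subunit of the replicative helicase, read 95.01 and 270.2 CPM in IQ3pos and 3.32 and 44.3 CPM in IQ3neg. The log2 difference of Rrm2 exceeded that of 25 of the 32 fork genes and that of Rrm1 exceeded 22, while Tyms, Tk1 and Dctpp1 each exceeded 21. Dut exceeded 4, Dck 2, Rrm2b 1 and Samhd1 0 of them. No gene of this or of the following lists was called by limma on CPM or on TMM-scaled CPM or by edgeR. With a minimum mean of 10 CPM, limma called 6 of 27 fork, 4 of 6 electron donor and 4 of 10 kinase genes higher. It also called 5 of 10 purine and 2 of 9 other salvage genes higher, against 14.5% of all genes in that fit. In the other lists it called 0 higher, and in every list 0 lower. Counts of genes higher or lower in both IQ3pos libraries, here and below, stand beside 40.9% and 14.2% of all tested genes. With TMM scaling these shares were 25.1% and 21.4%.

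The electron donor list, whose cytosolic proteins return electrons to the reductase after each cycle, lay on the same side. It also holds mitochondrial relatives such as Txn2. Of 7 electron donor genes, 6 were higher in both IQ3pos libraries and 0 lower in both, 4 and 0 with TMM scaling, with a median 1.02 above all genes. Txn1, the cytosolic thioredoxin, read 331 and 299 CPM in IQ3pos and 98.5 and 94.2 CPM in IQ3neg (log2 difference 1.70, limma adjusted p = 0.0659), and the mitochondrial Txn2 read 186 and 247 CPM in IQ3pos and 40.9 and 82.7 CPM in IQ3neg. Gsr, the glutathione reductase, named after its values were seen, had the largest difference of the list, at 199 and 192 CPM in IQ3pos and 19.4 and 21.5 CPM in IQ3neg (log2 difference 3.20, limma adjusted p = 0.0605).

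The kinases that lift nucleotides to the triphosphate were mixed. Of 14 nucleoside mono- and diphosphate kinase genes 13 were tested, and 8 were higher and 2 lower in both IQ3pos libraries, 6 and 2 with TMM scaling, with a median 0.90 above all genes. Nme1, a nucleoside diphosphate kinase, read 273 and 306 CPM in IQ3pos and 91.6 and 101 CPM in IQ3neg. Cmpk1, the UMP and CMP kinase, read 193 and 368 CPM in IQ3pos and 86.6 and 109 CPM in IQ3neg. Dtymk, which phosphorylates the dTMP made by Tyms and Tk1, was named after its values were seen and read 131 and 219 CPM in IQ3pos and 33.9 and 52.2 CPM in IQ3neg (log2 difference 1.98, limma adjusted p = 0.0815).

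The folate cycle feeds Tyms. Of its 8 genes, all tested, 3 were higher and 2 lower in both IQ3pos libraries, 2 and 2 with TMM scaling, near the shares of all genes (40.9% and 14.2%, or 25.1% and 21.4% with TMM scaling), with a median 0.44 above all genes. Mthfd1, the cytosolic trifunctional folate enzyme, read 45.7 and 106 CPM in IQ3pos and 5.89 and 20.6 CPM in IQ3neg, a log2 difference of 2.54. Its mitochondrial relative Mthfd2 read 5.78 and 24.9 CPM in IQ3pos and 27.6 and 28.2 CPM in IQ3neg, a log2 difference of −1.12, so the fractions were separated in the other direction.

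Of the de novo routes to the ribonucleotides that the reductase uses, all 5 pyrimidine genes were higher in both IQ3pos libraries, 2 of them with TMM scaling, with a median 0.89 above all genes. Umps, the enzyme that makes UMP, read 90.9 and 128 CPM in IQ3pos and 22.4 and 56.6 CPM in IQ3neg, and the CTP synthase Ctps2 read 72.2 and 76.7 CPM in IQ3pos and 22.2 and 39.6 CPM in IQ3neg. Of 13 purine genes, 11 were higher in both and 0 lower, 6 and 0 with TMM scaling, with a median 0.68 above all genes. Pfas, which catalyses a middle step of purine synthesis, read 610.2 and 521 CPM in IQ3pos and 278 and 174 CPM in IQ3neg, and Prps1, which makes the ribose phosphate donor, read 203 and 347 CPM in IQ3pos and 82.9 and 142 CPM in IQ3neg.

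Salvage and removal genes outside the 9 had lower medians than the synthesis lists. Their counts stand beside 40.9% of all genes higher and 14.2% lower in both, or 25.1% and 21.4% with TMM scaling. Of 14 other salvage genes 12 were tested, and 6 were higher and 1 lower in both IQ3pos libraries, 4 and 2 with TMM scaling, with a median 0.02 above all genes. Hprt, which salvages hypoxanthine and guanine, read 318 and 419.5 CPM in IQ3pos and 136 and 151 CPM in IQ3neg, and adenosine kinase (Adk) overlapped at 125 and 194 CPM in IQ3pos and 152 and 131 CPM in IQ3neg. Of 8 nucleotidase genes 6 were tested and 3 were higher and 0 lower in both, 2 and 0 with TMM scaling, with a median 0.42 above all genes. Of these, Nt5c3 read 119 and 104 CPM in IQ3pos and 33.5 and 63.1 CPM in IQ3neg, and Nt5c, a cytosolic deoxyribonucleotidase, read 93.7 and 90.9 CPM in IQ3pos and 27.5 and 50.8 CPM in IQ3neg. Of 6 other clean-up genes 5 were tested, with 2 higher and 1 lower in both, 0 and 1 with TMM scaling, and a median 0.36 above all genes. Dnph1, which hydrolyses a modified deoxynucleotide, read 21.7 and 69.1 CPM in IQ3pos and 9.60 and 16.9 CPM in IQ3neg, and Itpa, which clears dITP, read 16.1 and 52.3 CPM in IQ3pos and 14.9 and 12.6 CPM in IQ3neg.

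Nucleoside transporters and p53 targets, the setting of Rrm2b, completed the lists. Of 7 transporter genes 3 were tested, with 1 higher and 0 lower in both IQ3pos libraries, 0 and 0 with TMM scaling, and a median 0.12 above all genes. That gene, the equilibrative transporter Slc29a1, read 18.3 and 14.9 CPM in IQ3pos and 10.3 and 8.05 CPM in IQ3neg, and the lysosomal Slc29a3 read 0.121 and 16.2 CPM in IQ3pos and 0 and 4.15 CPM in IQ3neg. Of 15 p53 target genes 11 were tested, with 5 higher and 1 lower in both, 1 and 2 with TMM scaling, and a median 0.16 above all genes. The shares of all genes were 40.9% higher and 14.2% lower in both, or 25.1% and 21.4% with TMM scaling. Cdkn1a, the p21 inhibitor of cyclin-dependent kinases, read 56.6 and 31.6 CPM in IQ3pos and 147 and 47.0 CPM in IQ3neg, and Ccng1, cyclin G1, read 87.8 and 99.5 CPM in IQ3pos and 49.0 and 54.6 CPM in IQ3neg. Trp53inp1, a stress-induced p53 target named after its values were seen, read 2.38 and 0.380 CPM in IQ3pos and 22.3 and 32.9 CPM in IQ3neg.

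**Figure D4:**
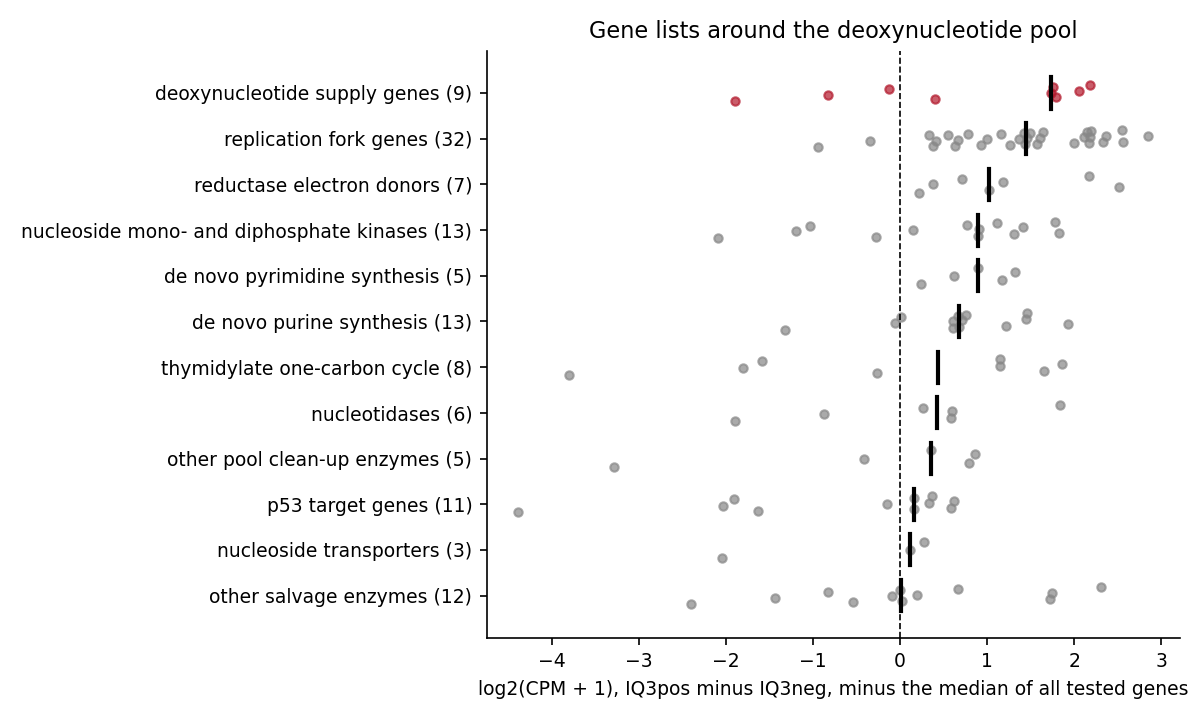
Log2(CPM + 1) difference, IQ3pos minus IQ3neg, of each tested gene (points) less the median of all tested genes (dashed line at 0), for the deoxynucleotide supply genes (red) and the lists around them (grey), with the number of tested genes in brackets and a bar at each list's median. The supply genes and the replication fork genes have medians of 1.73 and 1.45, and the salvage, transporter and p53 lists lie near 0.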

How the data were processed

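SMART-Seq2 libraries were made from sorted cells of the mouse stomach corpus, 2 for IQ3pos and 2 for IQ3neg. The authors deposited 1 table of CPM (counts per 1000000 reads in genes) per gene symbol and library. STAR 2.7.1a, Subread 2.0.0 with featureCounts, edgeR and GRCm38/mm10 are named in the submitters' processing notes, with no role or order. For the annotation, the strand setting and multi-mapped reads the sources used here give nothing. The deposited CPM of a library add up to 1000000, which leaves no room for a composition factor.

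Whole reads were recovered from the CPM steps, with 100% of the values above 0 whole to a tolerance of 0.05: 90714929 and 279125309 in IQ3pos_1909A and IQ3pos_1910A, and 115016307 and 418401262 in IQ3neg_1909B and IQ3neg_1910B. In IQ3pos 1 read equals 0.0110 and 0.00358 CPM, and in IQ3neg 0.00869 and 0.00239 CPM.

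Genes averaging 1 CPM or more were tested on log2(CPM + 1) with limma-trend of limma 3.58.1 in R 4.3.3. The test was two-sided with no block, at a Benjamini-Hochberg adjusted p of 0.05, and had 2 residual and 3.61 prior degrees of freedom. Fold changes on this scale understate the change of low genes. The alternatives changed the pseudocount, the filter or the scaling, left out 1 library at a time, added a replicate block, or used edgeR 4.0.16 (quasi-likelihood) and DESeq2 1.42.0 on the recovered reads. The scripts were tested on simulated data. Of the rows, 53647 (96.9%) matched a GENCODE vM21 symbol; coordinates are 1-based. Promoters are RefSeq's.

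The 9 members and the lists were chosen with earlier results of these data known. From each list the text names the genes past the threshold, otherwise the 2 of highest mean CPM, and marks any other gene as named after its values were seen. For Rrm2 and Rrm2b it names the 3 genes of nearest pattern.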

Additional observations from a re-analysis of the deposited data

Results flagged for a closer look

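For 3 of the 9 genes the difference between IQ3pos and IQ3neg went one way in the libraries of 3 mice and the other way in the libraries of 4 mice. On the log2(CPM + 1) scale, IQ3pos minus IQ3neg, Rrm2b differed by 2.47 in the 3-mouse libraries and by −2.77 in the 4-mouse libraries. Dck differed by −0.51 in the 3-mouse libraries and by 1.60 in the 4-mouse libraries. Samhd1 differed by −2.97 in the 3-mouse libraries and by 0.53 in the 4-mouse libraries. With 1 library per fraction and pool size, the difference between the pools was not tested. Of all 13019 tested genes, 30.3% had opposite directions in the same sense, 38.0% of those with a mean under 20 CPM and 17.5% of the others, and all 3 genes here have a mean under 20 CPM.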

How the results depend on the processing

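The direction of Rrm1, Rrm2, Tyms, Tk1, Dut and Dctpp1 was the same in all 19 alternatives run. The number of genes called higher and lower, 0 and 0 in limma on CPM, became 239 and 54 with a pseudocount of 5 CPM, and 999 and 87 with a minimum mean of 10 CPM. It became 0 and 18 with TMM-scaled CPM, 7 and 34 with DESeq2-type scaling, and 2 and 9 without the 20 most abundant genes. With edgeR it was 9 and 36, and with DESeq2 1040 and 2031. Of the 9 genes, limma called 2 with a pseudocount of 5 CPM (Rrm1 and Tyms) and 4 with a minimum of 10 CPM (Rrm1, Rrm2, Tyms and Dctpp1, limma adjusted p 0.0179 to 0.0248), where 14.5% of all genes were called higher. With each library left out in turn limma called 0 of the 9. The cause was not tested.

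Fits with the library number as a replicate block called 1216 genes higher and 125 lower, and 293 and 201 with TMM scaling. In the blocked fits limma called 4 of the 9 genes (Rrm1, Rrm2, Tyms and Dctpp1, against 9.34% of all genes called higher) and 3 with TMM scaling (Rrm1, Rrm2 and Tyms, against 2.24%). The deviations of same-numbered libraries from their group means correlated at 0.148 over genes, with only 2 pairs, so the numbers are not shown to pair the samples.

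The median difference of the 9 genes relative to all genes, 1.73, was 2.39 with no filter and 0.823 with DESeq2. With each library left out it ran from 0.50 (without IQ3pos_1910A) to 1.77, and with TMM scaling from 0.56 to 1.76. Rrm2b reversed to 0.68 with a pseudocount of 0.1 CPM and Dck to −0.043, and Dck to −0.14 without the 20 most abundant genes. With 1 library left out, where the lone library is assumed to vary like the others, Rrm2b ran from −2.20 to 1.90 (0.41 without IQ3pos_1910A, and with TMM scaling −3.04 without IQ3neg_1909B and 1.63 without IQ3neg_1910B). Dck ran from −1.18 to 2.28 (−0.13 without IQ3neg_1909B), and with TMM scaling to −1.36 (−0.67 without IQ3neg_1909B). Samhd1 ran from −3.40 to 0.96 (without IQ3pos_1909A, and then 0.20 with TMM scaling). Without length, the Rrm2 to Rrm1 ratio had a geometric mean of 0.649 in IQ3pos and 0.583 in IQ3neg, and of 1.18 and 1.06 with principal transcript lengths. The Tyms to Dut ratio had a geometric mean of 8.22 in IQ3pos and 3.33 in IQ3neg without length, and of 5.07 and 2.05 with principal transcripts. Reads are PCR copies without molecular identifiers, so the error of sampling molecules was not measured.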

Other observations

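Mitochondria keep their own deoxynucleoside kinases, and these did not follow Tk1. Tk2, the mitochondrial thymidine kinase, read 0.176 and 12.3 CPM in IQ3pos_1909A and IQ3pos_1910A, against 6.76 and 4.70 CPM in IQ3neg_1909B and IQ3neg_1910B. Its IQ3pos libraries held both the lowest and the highest value. Dguok, the mitochondrial deoxyguanosine kinase, read 12.7 and 7.46 CPM in IQ3pos and 42.9 and 27.6 CPM in IQ3neg, so it was lower in both IQ3pos libraries (log2 difference −1.72, limma adjusted p = 0.184). Aprt, the adenine phosphoribosyltransferase, read 63.8 and 69.0 CPM in IQ3pos and 8.90 and 14.96 CPM in IQ3neg, and Pnp, the purine nucleoside phosphorylase, read 30.0 and 27.6 CPM in IQ3pos and 1.14 and 5.64 CPM in IQ3neg. These 4 genes were named after their values were seen, and none passed limma's threshold with the filter of 1 CPM.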
